A study of Mus musculus with 2 samples.

Results

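The mitochondrial protein import machinery was taken as every row of the gene table whose symbol starts with Timm or Tomm and a digit, together with Pam16, Grpel1, Grpel2, Samm50, Mtx1, Mtx2, Chchd4, Gfer, Pmpca and Pmpcb. The rule gave 35 genes of 23466 rows. Of these, 33 reached 1 FPKM in either library, and Tomm20l and Timm8a2 were listed at 0 in both. FPKM counts the fragments of a gene per length of transcript and per depth of library. The cells were mouse cultures with the label primary microglia, which are the macrophages that live in brain and spinal cord. The treated culture received 1600 μM iron together with 1 μM RSL3, an inhibitor of the lipid peroxide reductase GPX4, and the control culture received DMSO. The stated aim of the treatment was ferroptosis, cell death driven by iron and lipid peroxidation. Strain, age, genotype, duration and the number of animals or cultures behind a library were not given in the sources used here. Each condition had 1 library, so the values describe these libraries only, without replicate error or test. Effects of iron and of RSL3 cannot be told apart in this design.

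Most mitochondrial proteins are made in the cytosol from nuclear genes and must be carried through the membranes of the organelle. The TOM complex of the outer membrane is the common entry gate, and routes divide behind it. Barrel proteins of the outer membrane go to the SAM complex, small cysteine-rich proteins of the intermembrane space to a disulfide relay, metabolite carriers to the TIM22 complex, and proteins with a cleavable presequence to the TIM23 complex, its motor and a peptidase. The inner membrane steps need the membrane potential that respiration maintains.

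The FPKM totals were 429250 in the treated and 385141 in the control library. Log2 changes below are those of FPKM + 1, treated minus control, and a gene was called higher or lower when it was past 2-fold on that scale. Over the 11771 measured genes, 4.25% were called higher and 11.8% lower, and the median log2 change was -0.38. Marker genes did not match the label of the cells well. In both libraries 11 of 16 microglia genes were under 1 FPKM, and 6 of these, among them Cx3cr1 and Aif1, were listed at 0. The summed FPKM of that list was 90.5 in the treated and 116 in the control library. All 12 fibroblast and mural genes were at 10 FPKM or more in both libraries, with sums of 7229.8 in the treated and 7971 in the control library. The part of cell make-up in any difference below was not tested, and in bulk RNA fewer cells of a type and less RNA per cell cannot be told apart.

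The import genes were expressed at moderate levels in both libraries and most were slightly lower in the treated one. Of the 33 measured genes, 28 had a log2 change below 0 and 5 above 0, while 31 were below 0 with equal FPKM totals and 22 with the libraries centred on the median ratio of abundant genes. The share below 0 was 84.8% of the import genes and 74.3% of all measured genes, 93.9% and 81.0% with equal totals, and 66.7% and 62.7% with centring. Among genes in the expression range of the import genes it was 78.0%, so the direction is close to that of the background. Timm9, a chaperone subunit of the intermembrane space, was the one gene called lower, and none was called higher. The median FPKM was 15.7 in the treated and 18.3 in the control library, and the summed FPKM was 633 in the treated and 761 in the control library. As a share of the library total, the sum was 0.148% in the treated and 0.198% in the control library. All 33 genes were above 2 FPKM in both libraries, so none entered through 1 library alone.

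The size of this difference was close to that of the transcriptome. The median log2 change of the import genes was -0.30, with quartiles of -0.55 and -0.17. The quartiles of all measured genes were -0.73 and 0.01. Of the 33 import genes, 12 lay below the median of all genes and 21 above it. In the 7797 genes with mean FPKM between 3.42 and 54.7, the range of the import genes, the median was -0.41, with 12.5% called lower and 3.71% called higher. With a rule of 1.5-fold, 8 of the 33 import genes were lower and 0 higher, against 34.7% lower and 8.28% higher over all measured genes. Those 8 were Timm9, Tomm40l, Chchd4, Grpel2, Pmpca, Tomm6, Timm29 and Timm21. By quartiles, the import genes thus had a narrower spread of changes than all measured genes. The quartiles of mitochondrial ribosomal protein genes, -0.76 and -0.19, and of nuclear oxidative phosphorylation genes, -0.41 and 0.08, were also closer together. Quartiles were not taken for the genes in the expression range of the import genes.

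**Figure D1:**
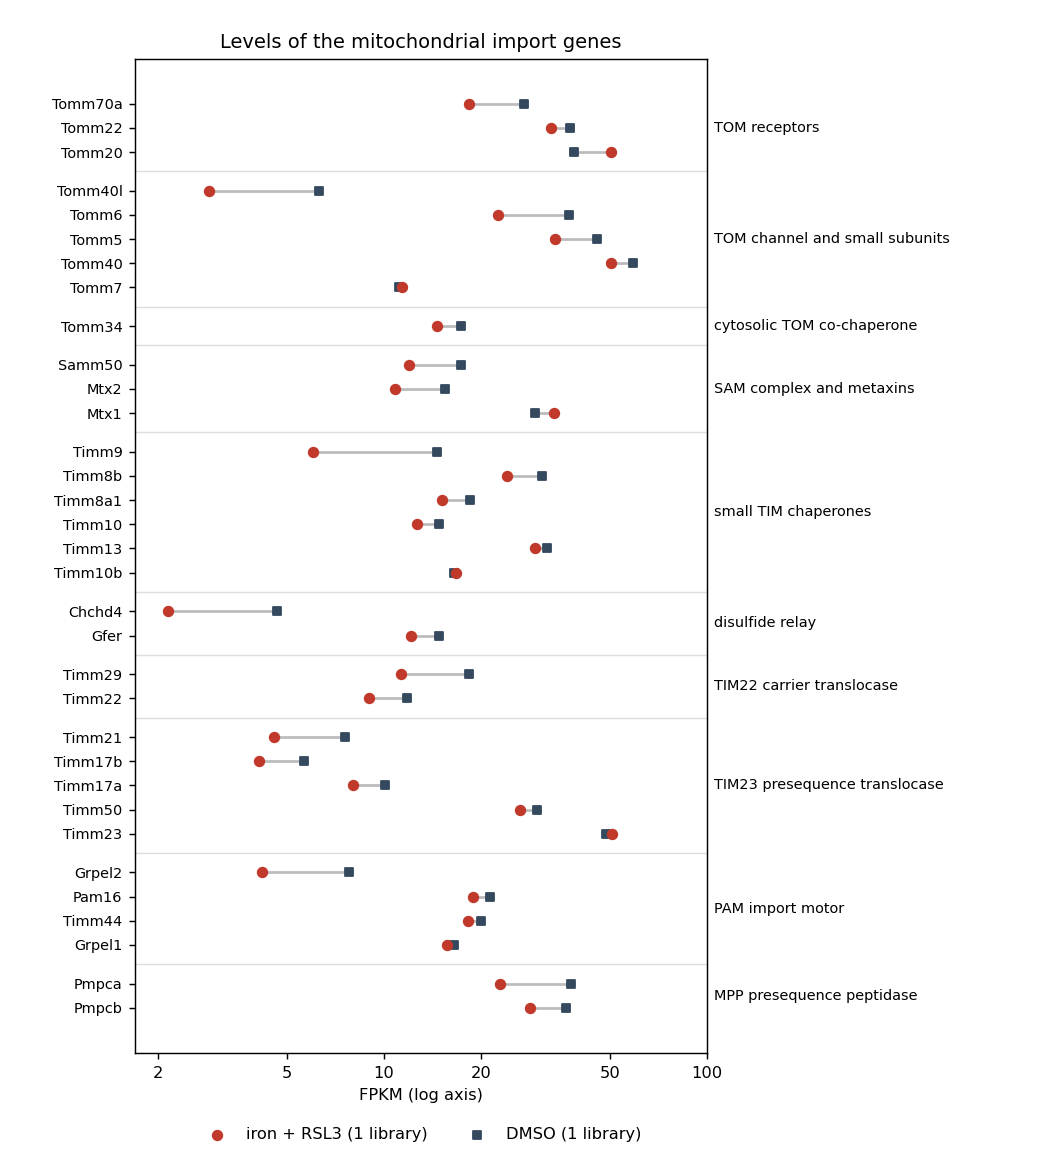
FPKM of the 33 measured import genes (log axis), by complex, in the iron plus RSL3 library (circles) and the DMSO library (squares), 1 library each. The treated value is the lower one in 28 genes, and Timm9, Tomm40l and Chchd4 have the widest gaps.

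**Figure D2:**
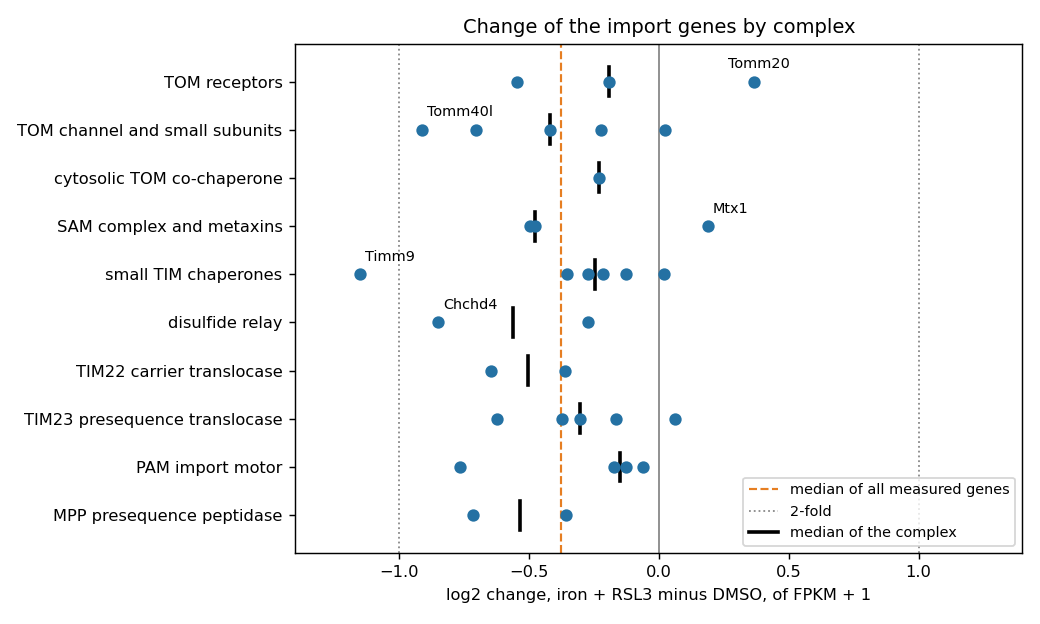
Log2 change of FPKM + 1, iron plus RSL3 minus DMSO, of each measured import gene (points) by complex, with the median of each complex (black bars) and of all measured genes (dashed line, -0.38). Timm9 at -1.15 is the one point beyond the dotted 2-fold lines.

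The receptors of the TOM complex differed in direction. Tomm20, the receptor that binds presequences, had 50.3 FPKM in the treated and 38.8 FPKM in the control library, 1.30-fold higher and the largest increase among the import genes (log2 change 0.37). Its gene lies at chr8:126930667-126945844 on the minus strand of GRCm38. Tomm70a, the receptor that takes carrier precursors from cytosolic chaperones, had 18.3 FPKM in the treated and 27.2 FPKM in the control library, 1.48-fold lower. Tomm22, the central receptor that holds the complex together, had 32.8 FPKM in the treated and 37.6 FPKM in the control library. The receptors together summed to 101 FPKM in the treated and 104 FPKM in the control library. Their balance therefore shifted towards Tomm20 while their sum hardly moved at the deposited scale. Unlike the balance, the sum depends on the scale between libraries. Centring moved the median log2 change of the receptors from -0.19 to 0.02.

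Tomm40, the barrel that forms the channel, was the most abundant import gene of the control library and was at 50.4 FPKM in the treated and 59.0 FPKM in the control library. Its paralogue Tomm40l had 2.89 FPKM in the treated and 6.32 FPKM in the control library, 2.19-fold lower. The log2 change of Tomm40l was -0.91, under the 2-fold rule because 1 FPKM is added, and -1.10 with 0.1 FPKM added. Of the small subunits that stabilise the complex, Tomm6 had 22.5 FPKM in the treated and 37.3 FPKM in the control library, 1.66-fold lower. Tomm5 had 33.8 FPKM in the treated and 45.5 FPKM in the control library. Tomm7, which is also needed to hold the kinase PINK1 at damaged mitochondria, had 11.4 FPKM in the treated and 11.1 FPKM in the control library. The small subunits thus ranged from lower to level, with no common change. Tomm34, a cytosolic co-chaperone that binds HSP70 and HSP90, had 14.6 FPKM in the treated and 17.3 FPKM in the control library.

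The SAM complex inserts barrel proteins such as Tomm40 into the outer membrane. Its core barrel Samm50 had 11.9 FPKM in the treated and 17.3 FPKM in the control library, 1.45-fold lower. The metaxin Mtx2 had 10.8 FPKM in the treated and 15.4 FPKM in the control library, 1.43-fold lower. Its partner Mtx1 went the other way, with 33.5 FPKM in the treated and 29.3 FPKM in the control library (log2 change 0.19).

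The small TIM chaperones ferry hydrophobic precursors across the intermembrane space, Timm9 with Timm10 in one ring and Timm8a1 with Timm13 in another. All 7 genes carry the signature of the family, 2 cysteine pairs with 3 codons inside each pair and 14 to 16 codons between the pairs. These cysteines are the sites that the disulfide relay oxidises. The coding stretch from the first to the last of them is given from the GENCODE M21 transcripts on GRCm38, introns removed, with the cysteine codons in capitals, to show what the differently changed members have in common. The Timm9 stretch lies at chr12:71123666-71125515 on the minus strand.
Timm9: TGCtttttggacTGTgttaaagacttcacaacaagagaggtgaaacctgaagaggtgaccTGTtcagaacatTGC
Timm10: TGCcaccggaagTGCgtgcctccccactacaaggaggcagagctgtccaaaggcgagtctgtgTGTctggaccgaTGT
Timm8a1: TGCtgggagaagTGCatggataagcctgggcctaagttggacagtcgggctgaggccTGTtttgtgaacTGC
Timm8b: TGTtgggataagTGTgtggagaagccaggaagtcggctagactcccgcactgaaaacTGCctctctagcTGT
Timm13: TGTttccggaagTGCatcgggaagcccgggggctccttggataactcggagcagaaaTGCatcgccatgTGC
Timm10b: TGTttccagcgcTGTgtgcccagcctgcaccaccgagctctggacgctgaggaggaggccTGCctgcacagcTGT
Timm8a2: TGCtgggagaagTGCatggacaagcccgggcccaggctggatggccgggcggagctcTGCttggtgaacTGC

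Timm9 and Timm10, which form the same ring, parted in the treated library. Timm9 (chr12:71123173-71136684, minus strand) had 6.03 FPKM in the treated and 14.6 FPKM in the control library, 2.42-fold lower, with a log2 change of -1.15. That change lay at the 6.86th percentile of all measured genes. Timm10 (chr2:84826997-84830213, plus strand) had 12.6 FPKM in the treated and 14.8 FPKM in the control library. The other ring changed less. Timm13 had 29.3 FPKM in the treated and 32.0 FPKM in the control library, and its partner Timm8a1 had 15.1 FPKM in the treated and 18.4 FPKM in the control library. Timm8b, a close relative of Timm8a1, had 24.0 FPKM in the treated and 30.9 FPKM in the control library. Timm10b, the small TIM attached to the TIM22 complex, had 16.7 FPKM in the treated and 16.4 FPKM in the control library. Timm9 was thus the only one of the 6 measured small TIM genes past 1.5-fold on the scale of FPKM + 1.

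Timm9 depended on how the libraries were scaled, since its log2 change was -1.28 with equal FPKM totals and -0.96, under 2-fold, with centring. The number of import genes called lower was 2 with equal totals, 0 with centring and 3 with a pseudocount of 0.1 FPKM, against 16.8%, 6.77% and 20.2% of all genes under the same settings.

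The disulfide relay that folds the small TIM proteins held the import gene with the lowest level. Chchd4, the oxidoreductase known as MIA40, had 2.15 FPKM in the treated and 4.68 FPKM in the control library, 2.18-fold lower. Its log2 change was -0.85 as reported and -1.09 with 0.1 FPKM added. Gfer, the sulfhydryl oxidase that regenerates it, had 12.1 FPKM in the treated and 14.8 FPKM in the control library. Chchd4 was thus the lower of the relay genes in both libraries, and it was also the one with the larger difference.

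At the deposited scale, both inner membrane translocases were lower in sum, the carrier route more so. In the TIM22 complex, the channel Timm22 had 8.97 FPKM in the treated and 11.8 FPKM in the control library, and the subunit Timm29 had 11.3 FPKM in the treated and 18.3 FPKM in the control library, 1.61-fold lower. The summed FPKM of these genes was 20.3 in the treated and 30.1 in the control library, a ratio of 0.674, the lowest of the 10 complexes. In the TIM23 complex the channel Timm23 had 50.8 FPKM in the treated and 48.7 FPKM in the control library and was the most abundant import gene of the treated library. Timm50, the receptor that hands presequences to the channel, had 26.3 FPKM in the treated and 29.7 FPKM in the control library. Timm21, which links the complex to TOM and the respiratory chain, had 4.57 FPKM in the treated and 7.57 FPKM in the control library, 1.66-fold lower. The core subunit paralogues moved alike, Timm17a with 7.99 FPKM in the treated and 10.1 FPKM in the control library, Timm17b with 4.12 FPKM in the treated and 5.64 FPKM in the control library. The sum of the 5 TIM23 genes was 93.8 FPKM in the treated and 102 FPKM in the control library, a ratio of 0.923. These sums depend on the scale between libraries. The median log2 change was -0.50 for TIM22 and -0.30 for TIM23, against -0.38 for all measured genes. With centring the medians were -0.30, -0.11 and -0.18 in the same order.

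The motor that pulls precursors into the matrix was nearly level apart from Grpel2. Timm44, which tethers the mitochondrial HSP70 to the channel, had 18.1 FPKM in the treated and 19.9 FPKM in the control library. Pam16, which holds the J-protein of the motor in place, had 18.8 FPKM in the treated and 21.3 FPKM in the control library. Grpel1, the nucleotide exchange factor of the motor, had 15.7 FPKM in the treated and 16.4 FPKM in the control library. Its paralogue Grpel2 had 4.18 FPKM in the treated and 7.80 FPKM in the control library, 1.87-fold lower. The median log2 change of the motor genes was -0.15, and 0.06 after centring.

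Behind the motor, the heterodimeric peptidase MPP removes presequences. Its alpha subunit gene Pmpca had 22.8 FPKM in the treated and 38.0 FPKM in the control library, 1.67-fold lower. The catalytic beta subunit gene Pmpcb had 28.4 FPKM in the treated and 36.6 FPKM in the control library, 1.29-fold lower. Their levels were close to each other in the control library and Pmpcb was the higher in the treated library.

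Ratios between import genes within a library do not depend on the scale between libraries. Paralogue ratios moved towards the more abundant copy. The ratio of Tomm40 to Tomm40l was 17.5 in the treated and 9.35 in the control library, and that of Grpel1 to Grpel2 was 3.75 in the treated and 2.10 in the control library. Timm17a to Timm17b stayed close, at 1.94 in the treated and 1.79 in the control library. Among partners, Timm10 to Timm9 had the largest shift, 2.09 in the treated and 1.02 in the control library, a 2.06-fold difference. Tomm20 to Tomm70a was 2.75 in the treated and 1.43 in the control library, and Gfer to Chchd4 was 5.62 in the treated and 3.17 in the control library. In each of these ratios the gene with the lower control FPKM had the more negative change, though Timm9 and Timm10 were nearly level there. The ratio of Pmpcb to Pmpca went the other way. It was 1.25 in the treated and 0.963 in the control library, so the more abundant Pmpca had the more negative change. The 5 import genes under 10 FPKM in the control library had a median log2 change of -0.76 and the other 28 a median of -0.25. The same split was not made for all measured genes.

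**Figure D3:**
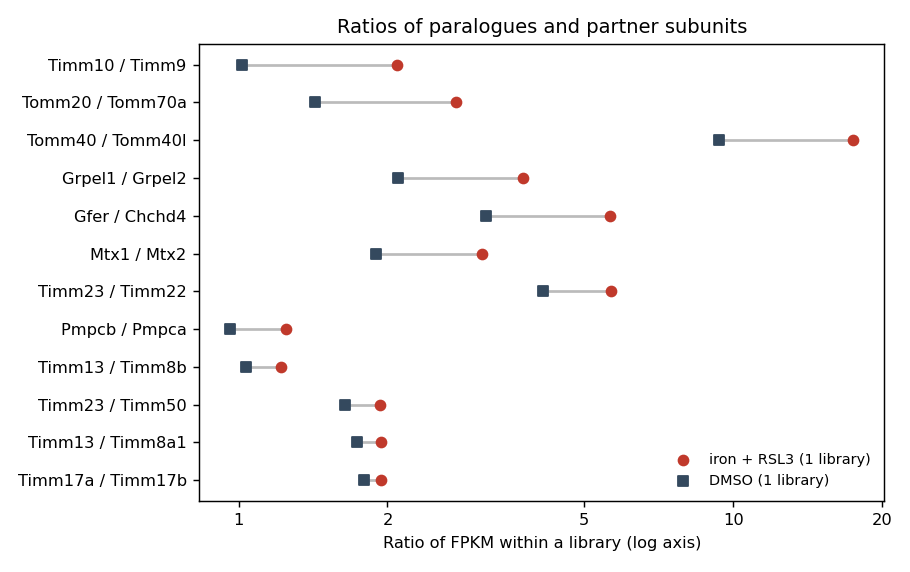
Ratio of FPKM (log axis) of 12 combinations of import genes within the iron plus RSL3 library (circles) and within the DMSO library (squares), ordered by the difference. Timm10 to Timm9 shows the widest gap, 2.09 against 1.02, and Timm17a to Timm17b the narrowest, 1.94 against 1.79.

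The precision of single genes was limited by counting as well as by the lack of replicates. Low values lay partly on steps, which, if 1 step is 1 fragment, correspond to 18.3 fragments per FPKM and 1000 bases in the treated and 16.6 in the control library. On its shortest annotated transcript of 362 bases, Timm9 then rests on about 40 fragments in the treated and 87 in the control library. The exact 95% binomial interval of its control to treated ratio is 1.63 to 3.59 there, and 2.09 to 2.79 on its longest transcript of 2564 bases. For Tomm40l the shortest transcript gives about 19 fragments in the treated and 38 in the control library and an interval of 1.24 to 4.06. Chchd4, at about 73 fragments in the treated and 144 in the control library on its shorter transcript, has an interval of 1.63 to 2.93. On the shortest transcripts the interval included 1 for 15 of the 33 genes, lay wholly on the side of lower in treated for 17 and on the other side for 1. Longer transcripts give more fragments and narrower intervals, so these counts depend on the transcript taken. They are set against a ratio of 1, while 74.3% of all measured genes had a log2 change below 0. The same count was not made for all measured genes. Such intervals cover counting error only and hold for the fragments estimated here, not for other cultures.

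Some import genes share reads with other genes, which makes their values less certain. The library protocol names no step that marks strand. Tomm6 shares 76.0% of its exonic bases with Gm21981, a gene on the same strand with 14.5 FPKM in the treated and 7.06 FPKM in the control library. The values of Tomm6 and Gm21981 differed in opposite directions, and how reads were divided between them is not given in the sources used here. Tomm40l shares 64.3% of its exonic bases with Nr1i3 on the other strand, which was at 0.0871 FPKM in the treated and 0.113 FPKM in the control library. Pmpca shares 20.4% with Inpp5e, at 3.13 FPKM in the treated and 7.36 FPKM in the control library. Timm9 shares 1.14% of its exonic bases, with Tomm20l, which was listed at 0. Near-identical copies elsewhere in the genome, at 95% identity over 200 bases or more, were found for 10 of the 35 genes. Timm23 had 6 of them, including Gm10273 at 4.82 FPKM in the treated and 3.90 FPKM in the control library, and Tomm20 had 4. A stretch of 573 bases of Gfer matched Dst at 99.8% identity. Dst had 16.9 FPKM in the treated and 22.2 FPKM in the control library, above Gfer in both. Levels of genes with such copies, and ratios that use them, are uncertain too.

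RefSeq windows on GRCm38.p6, from 250 bases before to 50 bases after the start, were matched for 31 of the 35 genes, using the first listed start of a gene. The core CCGGAAG of ETS factors was present in 14 of 31 windows (45.2%), on either strand, against 9.12% of all 27025 windows and 19.5% of the 8945 windows of measured genes. The palindromic element of the nuclear respiratory factor NRF1 was present in 4 of 31 windows (12.9%), against 4.78% of all and 11.2% of measured genes. TGACGTCA (cyclic AMP response element) and TGATGNAA (ATF4 element) were in 0 of 31, against 1.88% and 4.06% of all windows and 3.47% and 2.15% of those of measured genes. TGACNNNGC (antioxidant response element) was in 2 of 31, against 12.5% of all and 14.96% of measured genes, and AAGATGGCG (YY1) in 2 of 31, against 1.49% and 3.52%. CCAAT was in 9 of 31, against 37.9% of all and 39.4% of measured genes. The heat shock element, alternating GAA and TTC units with 2 free bases between them, was in 1 of 31, that of Timm9, against 0.529% of all and 0.369% of measured genes. No matches of different motifs overlapped in the windows of the import genes. The 13 measured genes with CCGGAAG had a median log2 change of -0.23 and the 16 without it -0.29. A match is a description of letters and not evidence of binding.

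The 150 bases before the start of Tomm20 (chr8:126945922-126946071, minus strand), Tomm70a (chr16:57121564-57121713, plus strand) and Timm9 (chr12:71136676-71136825, minus strand) are shown as those of the receptors that diverged and of the gene called lower. Capitals mark matches to the motifs above.
Tomm20: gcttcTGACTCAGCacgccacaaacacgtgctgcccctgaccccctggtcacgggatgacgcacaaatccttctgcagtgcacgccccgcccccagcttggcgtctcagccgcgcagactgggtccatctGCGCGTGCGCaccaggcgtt
Tomm70a: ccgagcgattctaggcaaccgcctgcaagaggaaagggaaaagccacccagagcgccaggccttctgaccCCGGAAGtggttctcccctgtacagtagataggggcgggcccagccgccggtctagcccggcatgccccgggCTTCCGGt
Timm9: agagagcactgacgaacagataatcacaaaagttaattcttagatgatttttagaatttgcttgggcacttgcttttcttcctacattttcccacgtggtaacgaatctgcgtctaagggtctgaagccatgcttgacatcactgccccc
Tomm20 has an NRF1 element close to its start and an antioxidant response element farther out, Tomm70a has 2 ETS cores, and the shown stretch of Timm9 has no match. The heat shock element of Timm9 lies farther upstream, 202 to 190 bases before the start at chr12:71136859-71136883 with its flanks, and is shown with the element in capitals.
Timm9: taggctTTCTAGAAATTTCgacaga
That site lies beyond the start of the neighbouring gene 2700049A03Rik, which is read in the opposite direction from 164 bases away and had 1.05 FPKM in the treated and 2.64 FPKM in the control library. In all, 10 import genes had such a head-to-head protein-coding neighbour with a start within 1000 bases. For Pmpca it was Entr1, at 16.0 FPKM in the treated and 25.5 FPKM in the control library. For Timm23 it was Parg, at 5.80 FPKM in the treated and 11.4 FPKM in the control library, while Timm23 itself was nearly level.

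Other nuclear genes whose products are imported gave medians on either side of that of the import genes. Genes of mitochondrial ribosomal proteins, the 78 measured genes with symbols starting with Mrpl or Mrps, had a median log2 change of -0.47, with 10 called lower, close to the 11.8% of all measured genes, and 1 called higher. Nuclear genes of oxidative phosphorylation, 88 measured, had a median of -0.14, with 3 called lower and 0 called higher. The import genes lay between these at -0.30. The summed FPKM ratio, treated over control, was 0.833 for the import genes, 0.788 for the ribosomal proteins and 0.969 for oxidative phosphorylation. After centring, the medians were -0.11 for the import genes, -0.26 for the ribosomal proteins and 0.07 for oxidative phosphorylation, in the same order.

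**Figure D4:**
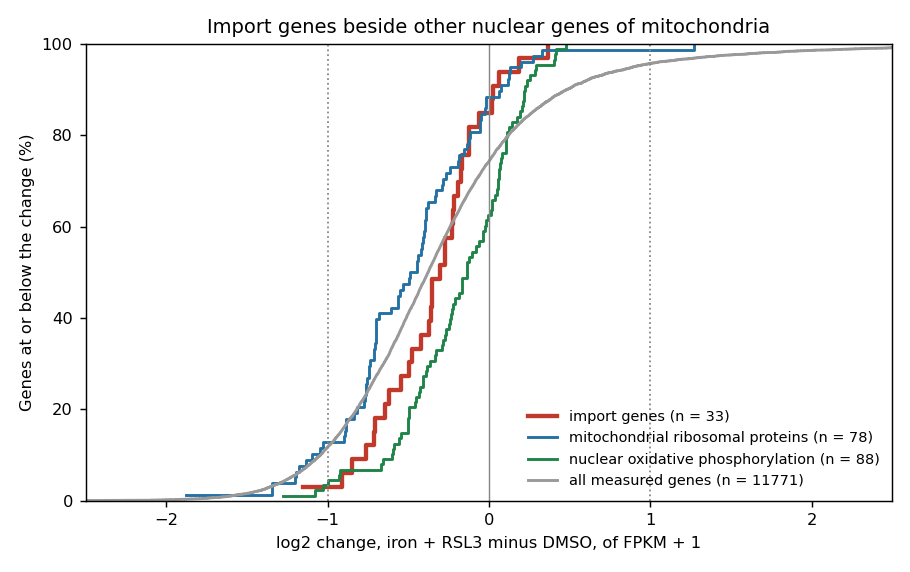
Cumulative share of genes (%) by log2 change of FPKM + 1, iron plus RSL3 minus DMSO, for the import genes (n = 33), mitochondrial ribosomal proteins (n = 78), nuclear oxidative phosphorylation genes (n = 88) and all measured genes (n = 11771). The curve of the import genes lies mostly between those of the other mitochondrial groups and lacks the upper tail of all genes.

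Genes that work with the import machinery outside the rule were taken from 7 lists with 71 measured genes, of which 8 were called higher and 8 lower, against 4.25% higher and 11.8% lower over all measured genes, so the lower count is near the background. The increases were among chaperones and stress factors. In the list of cytosolic precursor delivery, 4 of 12 were called higher and 0 lower, with a median log2 change of 0.32. Dnaja1, a J-protein that escorts precursors, had 281 FPKM in the treated and 49.4 FPKM in the control library, and Hsp90aa1 had 1375 FPKM in the treated and 281 FPKM in the control library. Hspa8, the constitutive cytosolic HSP70, had 2935 FPKM in the treated and 776 FPKM in the control library, and Hsp90ab1 had 1775 FPKM in the treated and 655 FPKM in the control library. Of the import genes that bind these chaperones, Tomm70a was 1.48-fold and Tomm34 1.19-fold lower in the treated library. Their log2 changes were -0.55 and -0.23, below and above the median of -0.38 of all measured genes. With centring they were -0.34 and -0.03. A link to the chaperone values was not tested.

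Matrix chaperones gave mixed values. Of 10 genes of matrix folding and proteolysis, 2 were called higher and 1 lower, against 4.25% and 11.8% of all measured genes. Their median log2 change was -0.21. Hspd1, the HSP60 chaperonin, had 512 FPKM in the treated and 230.0 FPKM in the control library, and its lid Hspe1 had 284 FPKM in the treated and 126 FPKM in the control library. Dnaja3, a mitochondrial J-protein, had 8.57 FPKM in the treated and 22.4 FPKM in the control library. Of the 10 genes, 7 had a change below 0, near the 74.3% of all measured genes. Among 5 motor partners none was past 2-fold, with a median of -0.38, the same as all measured genes. Hspa9, the mitochondrial HSP70 that drives the motor, had 239.5 FPKM in the treated and 189 FPKM in the control library, and Romo1, a small inner membrane protein, had 14.0 FPKM in the treated and 19.6 FPKM in the control library.

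Of 9 insertion partners of the membranes, 4 were called lower and 0 higher, with a median of -0.56, against 11.8% of all measured genes called lower. With centring 1 of the 9 was called lower, against 6.77% of all. Agk, a lipid kinase that is also a TIM22 subunit, had 2.94 FPKM in the treated and 8.34 FPKM in the control library. Dnajc11, which associates with the SAM complex, had 9.30 FPKM in the treated and 22.6 FPKM in the control library. Mtx3, the third metaxin, had 1.04 FPKM in the treated and 3.36 FPKM in the control library. Timmdc1, a complex I assembly factor related in sequence to the TIM channels, had 5.34 FPKM in the treated and 11.7 FPKM in the control library. The abundant outer membrane proteins Mtch1 and Mtch2 stayed within 2-fold, Mtch1 with 124 FPKM in the treated and 140.5 FPKM in the control library, Mtch2 with 41.8 FPKM in the treated and 49.5 FPKM in the control library.

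Sensors and later steps gave mixed values. Of 10 measured genes of import failure sensing and clearance, 2 were called higher and 1 lower, against 4.25% and 11.8% of all measured genes. Ddit3, the stress factor CHOP, had 448 FPKM in the treated and 128 FPKM in the control library, and Atf4 had 305 FPKM in the treated and 119 FPKM in the control library. Oma1, the protease that cleaves DELE1 when the inner membrane is stressed, had 1.31 FPKM in the treated and 6.53 FPKM in the control library. Vcp, the extractor of stuck proteins, had 184 FPKM in the treated and 179.8 FPKM in the control library. Of 20 substrates of the disulfide relay, 2 were called lower and 0 higher, so the lower count is near the 11.8% of all measured genes. Their median log2 change was -0.19, against -0.38 for all measured genes. The genes called lower were Cmc2, at 2.48 FPKM in the treated and 6.20 FPKM in the control library, and Triap1, at 7.07 FPKM in the treated and 15.3 FPKM in the control library. The abundant Chchd2 had 314 FPKM in the treated and 175 FPKM in the control library, and Cox6b1 had 93.2 FPKM in the treated and 85.5 FPKM in the control library. Of the 5 later presequence peptidases none was past 2-fold, and Pitrm1, which degrades freed presequences, had 33.3 FPKM in the treated and 38.7 FPKM in the control library, and Immp1l, a subunit of the inner membrane peptidase, had 8.81 FPKM in the treated and 9.17 FPKM in the control library.

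**Figure D5:**
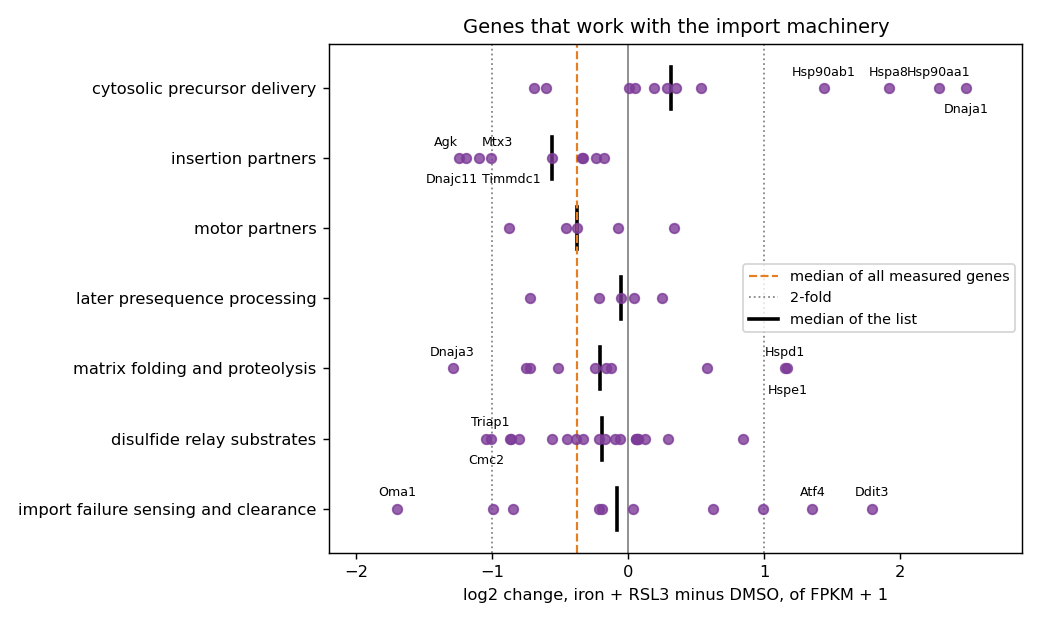
Log2 change of FPKM + 1, iron plus RSL3 minus DMSO, of the measured genes (points) of 7 lists of genes that work with the import machinery, with list medians (black bars), the median of all measured genes (dashed line) and genes past 2-fold named. The 3 highest points are the cytosolic chaperones Dnaja1, Hsp90aa1 and Hspa8, and the lowest is Oma1.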

How the data were processed

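RNA of 2 cultures was selected with oligo(dT) beads, per the labels' protocols, which name no strand-marking step. The authors deposited FPKM values per gene. HISAT2, StringTie, DESeq2, edgeR and the build GRCm38 appear in the submitters' processing notes, without roles or order. For versions, annotation release and filters the sources used here give nothing. Groups came from sample titles and columns from library names, and 0 columns of values were unassigned.

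Each gene was compared as log2(FPKM + 1), treated minus control, over rows at 1 FPKM or more in either library, with a size rule of 2-fold. No test was possible with 1 library per condition, and no count model was used. The 1430 rows without an Ensembl identifier were kept in totals and in the counts over all genes. In 27 rows a symbol turned into a date was restored through its identifier. Where a symbol stood on several rows, lists used the row with the higher mean. Identifiers of all 35 import genes matched GENCODE M21 (GRCm38). Every import gene was named, and of the other lists those past 2-fold and the 2 most abundant. Members and lists were chosen with earlier results of these data known.

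Depth was estimated from the step at which FPKM times length clustered for genes with a single transcript. Among low values, 37.0% in the treated and 34.0% in the control library lay within 0.05 of a whole step, so whole fragments were not recovered. Copies were sought with BLAST 2.17.0. The calculations ran in Python 3.11.15 with pandas 2.3.3 and were tested on simulated data. Alternatives covered pseudocount, filter, scale and size rule.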

Additional observations from a re-analysis of the deposited data

How the results depend on the processing

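The scaling alternatives shift all genes together. Equal FPKM totals moved log2 values by -0.16, centring on the median ratio of genes at 10 FPKM or more in both libraries by 0.22, and leaving out mitochondrially encoded and the 20 most abundant genes by -0.08. The count of import genes called lower, 1 as reported, was 3 with a pseudocount of 0.1 FPKM, 2 with equal totals, 0 with centring and 8 with a rule of 1.5-fold. Over all measured genes the shares called lower were 11.8%, 20.2%, 16.8%, 6.77% and 34.7% in the same order. No import gene was called higher under any of these alternatives. The median of the import genes stayed below 0 under each scale, between -0.44 and -0.11. Centring moved the medians of the TOM receptors to 0.0233, of the import motor to 0.0600 and of the oxidative phosphorylation genes to 0.0673. With centring, 3 of 71 genes in the 7 related lists were called lower, against 6.77% of all measured genes. Among ribosomal proteins it was 5 of 78 and in oxidative phosphorylation 1 of 88. With 1.5-fold the genes called lower numbered 19, 33 and 11 in the same groups, against 34.7% of all. In oxidative phosphorylation they numbered 6 of 87 with equal totals and 6 of 87 without the abundant genes. Of all measured genes, 16.8% and 14.1% were called lower under these settings. No filter and a filter of 5 FPKM turned no median of a group and changed no count by over 1.5 times. Among complexes, medians that moved by more were the disulfide relay, -0.27 at 5 FPKM, and the TOM receptors, -0.10 without a filter. Among related lists they were later processing, -0.13 at 5 FPKM, and failure sensing, -0.02 without a filter. No paired analysis was possible because each condition had 1 library, and for the same reason no replicate could be left out. Depth limits the weakly expressed genes with short transcripts most, such as Tomm40l and Timm17b, with about 19 and 33 fragments in the treated library on the shortest transcript.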
